A study of Mus musculus with 6 samples.

Results

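The 10 genes described here encode the MHC class II antigen presentation machinery, and their levels were followed in pre-B cells as Eμ-Myc mice progressed from wild type through premalignancy to malignant lymphoma. The genes were taken by symbol from 37991 identifiers in the count data: the classical chains H2-Aa, H2-Ab1 and H2-Eb1, the invariant chain Cd74, the transactivator Ciita, the peptide exchange chains H2-DMa, H2-DMb1 and H2-DMb2, and the H2-DM modulators H2-Oa and H2-Ob. All 10 were among the 16683 genes that passed the filter on low counts and were tested. Polyadenylated RNA was sequenced from bone marrow cells of C57BL/6 mice, in 2 biological replicates for each of 3 stages and 6 libraries in all. Wild type cells came from littermates without the transgene, aged 4 to 6 weeks. Premalignant cells came from Eμ-Myc/+ mice of the same age, and malignant cells from Eμ-Myc/+ mice that had spontaneous lymphoma at 10 to 20 weeks. Every mouse that gave malignant or premalignant cells carried the transgene, in which an immunoglobulin heavy chain enhancer drives Myc in the B lineage. Cells were sorted as B220 high with low IgM and IgD for wild type and premalignant mice, and as B220+ without IgM or IgD for malignant mice. Wild type and premalignant mice were female and malignant mice were of both sexes. Stage, age, sex and the surface markers used for sorting therefore cannot be told apart for malignant cells. The biological replicates of these sorted cells were separate mice.

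MHC class II molecules are pairs of an alpha and a beta chain that carry peptides of ingested proteins to the cell surface, where CD4+ T cells read them. The invariant chain Cd74 blocks the peptide groove during assembly, H2-DM then removes its last fragment and exchanges peptides, and H2-O, which B cells make, inhibits H2-DM. Ciita is the coactivator without which these genes are hardly transcribed. It is recruited by factors bound to conserved X and Y boxes upstream of class II genes. B cells acquire surface class II as they develop in the bone marrow, and they present antigen through it once mature.

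RefSeq promoters of the GRCm38.p6 build, each running from 250 bases before to 50 bases after a gene's start, were found for 7 of the 10 genes. They were searched on both strands for the X box core ACNGATG, for the Y box core ATTGG, and for an X core followed on the same strand by ATTGG after 15 to 35 bases. Stretches of 77 bases around the Y core are shown for the 6 genes that hold it within the longer run TGATTGG, and for the neighboring gene H2-Eb2, because they hold letters of the kind that the regulators described further on are known to bind. Capitals mark the Y core and, where the spacing rule was met, the X core.
H2-Aa, chr17:34287852-34287928, minus strand: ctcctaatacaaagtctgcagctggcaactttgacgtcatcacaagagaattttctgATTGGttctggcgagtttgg
H2-Eb1, chr17:34305751-34305827, plus strand: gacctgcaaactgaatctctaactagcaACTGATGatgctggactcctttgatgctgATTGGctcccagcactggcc
H2-DMb1, chr17:34153073-34153149, plus strand: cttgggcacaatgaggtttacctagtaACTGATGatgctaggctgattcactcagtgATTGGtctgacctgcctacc
H2-DMb2, chr17:34145102-34145178, plus strand: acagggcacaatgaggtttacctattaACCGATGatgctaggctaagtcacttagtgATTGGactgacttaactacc
H2-Oa, chr17:34092279-34092355, plus strand: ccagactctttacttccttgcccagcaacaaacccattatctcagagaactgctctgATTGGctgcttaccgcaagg
H2-Ob, chr17:34238791-34238867, plus strand: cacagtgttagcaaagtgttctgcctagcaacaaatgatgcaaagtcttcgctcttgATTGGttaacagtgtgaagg
H2-Eb2, chr17:34325518-34325594, plus strand: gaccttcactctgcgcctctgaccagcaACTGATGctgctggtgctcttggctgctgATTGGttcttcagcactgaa

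An X core followed by a Y core within the spacing was present in H2-Eb1, H2-DMb1 and H2-DMb2, with 22 bases between them in H2-Eb1 and 23 in both H2-DMb genes, and in 0.174% of the 32851 promoters searched. H2-Eb2 carried the same arrangement with 22 bases between. The Y core lay 59 bases before the start in H2-Eb1, 61 in H2-DMb1 and 90 in H2-DMb2. TGATTGG, which contains the Y core and was chosen after the sequences were seen, was present in 6 of the 7 genes and in 7.82% of all promoters. ATTGG by itself was present in 37.4% of all promoters and in all 7 genes, and ACNGATG in 9.85% of promoters and in 5 of the 7 genes. H2-DMa had neither TGATTGG nor the spaced arrangement in either of its promoters. H2-Oa and H2-Ob, described below as the members not called higher than wild type at either stage, also carried TGATTGG. A match is a run of letters and does not show that a factor was bound.

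Levels are given as CPM, the counts scaled to a fixed total of reads, after TMM normalization, which corrects for differences in library size and composition. A gene was called when its adjusted p was at most 0.1 and its absolute log2 fold change at least 0.5, by the quasi-likelihood test of edgeR and a Benjamini-Hochberg correction over all 16683 genes. Errors beside a log2 fold change are standard errors (SE), and errors beside a mean are SD of 2 libraries. An exact permutation test of 2 against 2 libraries cannot give a two-sided p below 0.333, so each test rests on the spread shared across genes. Total counts ranged from 51065861 to 53453055 in the replicate 1 libraries and from 30031100 to 34543633 in the replicate 2 libraries, so that 3 counts corresponded to 0.0526 to 0.108 CPM. Myc was at 33.8 and 41.4 CPM in wild type cells, 1164 and 1155 CPM in premalignant cells and 1732 and 1578 CPM in malignant cells, the direction that the genotypes give. The B-lineage genes Cd79a and Cd79b lay between 616 and 1480 CPM in every library. Both were called lower in premalignant and in malignant vs. wild type, with log2 fold changes of −0.63 and −0.72 for Cd79a. Those of Cd79b were −0.81 and −0.93. Vpreb1, Igll1 and Dntt, from a list of B-lineage and pre-B markers, lay between 115 and 264 CPM in wild type cells. They lay between 4.88 and 21.2 CPM in premalignant cells and between 4.05 and 7.56 CPM in malignant replicate 2. In malignant replicate 1 they were nearly absent, at 0.105 to 0.167 CPM. The sorted wild type and premalignant cells held both pro-B and pre-B cells, and these 3 genes do not by themselves define the labeled cell type.

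In premalignant compared with wild type cells, the classical chains, the invariant chain and Ciita rose together by 2.76- to 5.85-fold. Both beta chains of H2-DM rose as well, H2-DMa did not pass the test, and the modulator H2-Oa fell. Of the 10 genes, 7 were called higher against 19% of all genes tested, and 1 was called lower against 20.3%. Both premalignant libraries lay above both wild type libraries for 8 of the 10, as they did for 36.2% of all genes, and below them for H2-Oa and H2-Ob, as for 41.2%. The median log2 fold change of the 10 genes was 1.5, beside −0.08 over all genes tested. Without 1 of the wild type or premalignant libraries, 0 to 3 members were called in this comparison, while all 8 changes kept their direction. In bulk samples a lower share of expressing cells and less RNA per cell cannot be told apart, and the same holds for a rise.

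In malignant compared with wild type cells, 8 of the 10 genes were called higher, against 24.9% of all genes, and H2-Ob was called lower, against 24.3%. Taken in either direction, 9 members were called, against 49.2% of all genes. In 8 members both malignant libraries lay above both wild type libraries (35.3% of all genes), and in H2-Ob both lay below (36.4%). The median log2 fold change was 1.95, beside −0.02 over all genes. H2-Eb1 changed most among the classical chains, by 9.10-fold, and Cd74 and H2-DMb1 rose by 5.44- and 5.03-fold. Between the premalignant and malignant stages, only H2-DMb1 was called higher among the 10 genes and only H2-Ob lower, against 3.73% and 2.45% of all genes, or 6.18% in either direction. Cd74, H2-DMb1 and H2-Oa were higher in both malignant libraries than in both premalignant ones, as were 25.9% of all genes, and H2-Ob was lower in both, as were 25.2%. The median log2 fold change was then 0.59, beside 0.04 over all genes. Over all genes, 623 were called higher and 408 lower in this comparison, and with upper-quartile normalization 487 and 492. The comparisons with wild type share the same 2 wild type libraries, and those with premalignant cells share the same premalignant libraries.

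**Figure D1:**
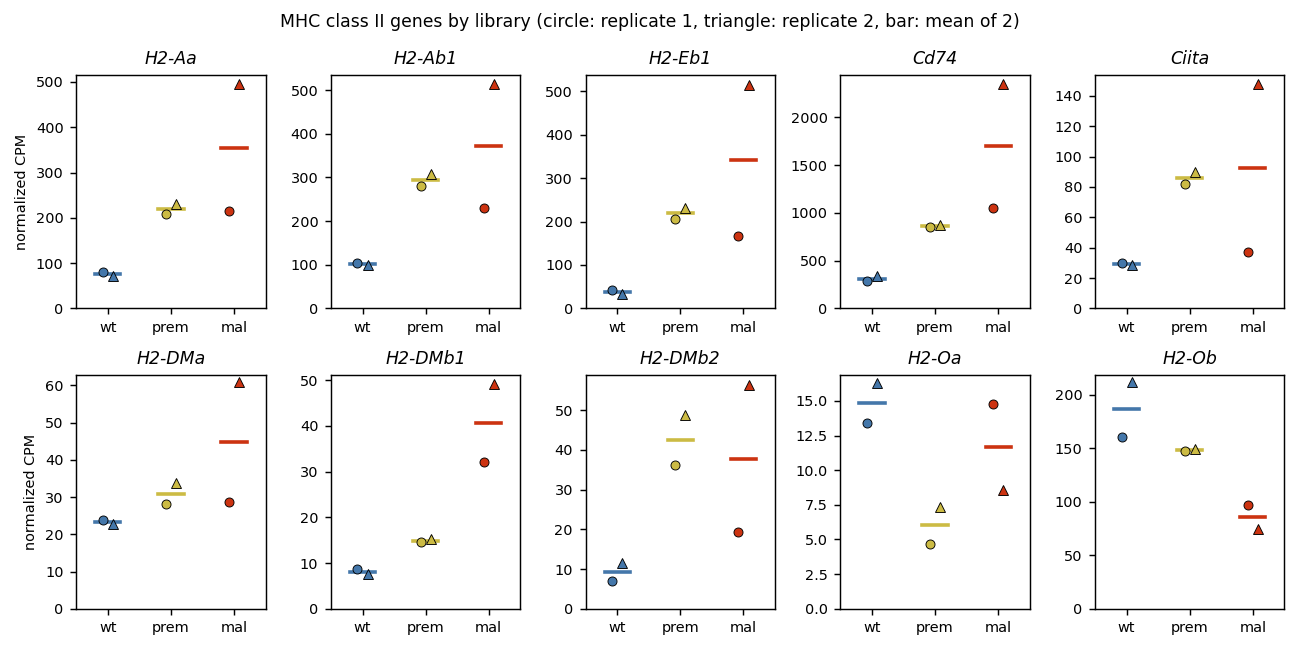
Normalized CPM (vertical axes, from 0, a scale for each gene) of the 10 class II genes at the 3 stages (wt, wild type; prem, premalignant; mal, malignant), with replicate 1 as circles, replicate 2 as triangles and the mean of both as a bar. Malignant replicate 2 lies above malignant replicate 1 in 8 panels, and only H2-Oa and H2-Ob are lower there.

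The 3 classical chains lie next to each other in the class II region of chromosome 17, where the mm9 annotation places H2-Ab1 at 34400154 to 34406363 on the plus strand, H2-Aa at 34406276 to 34424772 on the minus strand and H2-Eb1 at 34442828 to 34453144 on the plus strand. H2-Aa encodes the alpha chain of the I-A molecule. It was at 80.1 and 71.2 CPM in wild type replicates 1 and 2, at 209 and 230.5 CPM in the premalignant replicates and at 215 and 495 CPM in the malignant replicates. Both transgenic stages lay above wild type in every library, and the lower malignant library lay between the premalignant ones. The log2 fold change was 1.54 ± 0.37 (SE, adjusted p = 0.0250) in premalignant vs. wild type and 2.23 ± 0.38 (SE, adjusted p = 0.00551) in malignant vs. wild type. Malignant vs. premalignant gave 0.69 ± 0.36 (SE, adjusted p = 0.353), which did not pass the test.

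H2-Ab1, the beta chain that pairs with H2-Aa, measured 103 and 98.9 CPM in wild type, 280.3 and 307 CPM in premalignant and 229 and 515 CPM in malignant cells. The wild type libraries were again the lowest, and the malignant libraries lay on either side of the premalignant ones. Its log2 fold change was 1.54 ± 0.36 (SE, adjusted p = 0.0228) in premalignant vs. wild type, 1.88 ± 0.36 (SE, adjusted p = 0.00843) in malignant vs. wild type and 0.34 ± 0.35 (SE, adjusted p = 0.662) in malignant vs. premalignant. H2-Aa and H2-Ab1 share 17 exonic bases at their ends on opposite strands, which is 0.856% and 1.03% of their exon lengths, and the library kit does not mark strand.

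H2-Eb1, the beta chain of the I-E molecule, measured 41.5 and 33.2 CPM in wild type, 205 and 232 CPM in premalignant and 167 and 514 CPM in malignant cells. All 4 transgenic libraries lay far above both wild type libraries. The log2 fold change was 2.55 ± 0.50 (SE, adjusted p = 0.0138) in premalignant vs. wild type and 3.19 ± 0.51 (SE, adjusted p = 0.00478) in malignant vs. wild type. With 0.64 ± 0.47 (SE, adjusted p = 0.522), malignant vs. premalignant cells did not pass the test. C57BL/6 mice carry a deletion in the gene of the E alpha chain and do not display I-E, and that gene, listed as H2-Ea-ps, had between 0 and 8 counts in each library (at most 0.215 CPM) and was not tested.

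Relative to H2-Ab1, H2-Eb1 stood at different levels in wild type and transgenic cells. On the scale of CPM per kilobase of exon, which allows genes of different length to be compared, the ratio of H2-Eb1 to H2-Ab1 was 0.556 and 0.464 in wild type, 1.01 and 1.04 in premalignant and 1.01 and 1.38 in malignant cells. Both wild type libraries lay below all others. The ratio of H2-Aa to H2-Ab1 moved less, from 0.596 and 0.641 in wild type and 0.618 and 0.620 in premalignant cells to 0.778 and 0.796 in malignant cells, where both libraries lay above the other 4.

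Cd74 lies apart from the class II region, on chromosome 18 at 60963502 to 60972300 of mm9. It was the highest of the 10 genes in every library on the scale of CPM per kilobase, with a mean of 222 in wild type cells, 612 at the premalignant stage and 1206 in malignancy. Its level was 286 and 338 CPM in wild type, 849 and 877 CPM in premalignant and 1054 and 2346 CPM in malignant cells. Cd74 was the only one of the classical and invariant chain genes for which the libraries of the 3 stages did not overlap. The log2 fold change was 1.47 ± 0.36 (SE, adjusted p = 0.0276) in premalignant vs. wild type and 2.44 ± 0.37 (SE, adjusted p = 0.00404) in malignant vs. wild type. Malignant vs. premalignant gave 0.98 ± 0.36 (SE, adjusted p = 0.205) and did not pass the test.

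Cd74 took up 37.9% and 40.3% of the summed CPM of the 10 genes in wild type libraries, 45.7% and 44.0% in premalignant libraries and 55.6% and 55.0% in malignant libraries, without overlap between stages. Per kilobase, it was 3.23 and 3.99 times as high as H2-Ab1 in wild type, 3.53 and 3.33 times in premalignant and 5.36 and 5.31 times in malignant cells. The 2 malignant libraries, which differed by 2.23-fold in Cd74 itself, therefore gave nearly the same ratio. Of the genes linked to Cd74 as a receptor, its ligand Mif rose from 58.8 and 60.3 CPM in wild type to 315 and 295 CPM in premalignant and 391 and 474 CPM in malignant cells. On the log2 scale Mif changed by 2.36 ± 0.15 (SE, adjusted p = 0.00147) in premalignant vs. wild type and 2.86 ± 0.16 (SE, adjusted p = 0.00054) in malignant vs. wild type. Of the coreceptors, Cd44 was not called in any comparison, and Cxcr4 was called lower in premalignant vs. wild type, by 1.11 ± 0.41 on the log2 scale (SE, adjusted p = 0.0832).

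Ciita, on chromosome 16 at 10480237 to 10527657 of mm9, was at 29.9 and 28.4 CPM in wild type, 82.2 and 89.8 CPM in premalignant and 36.9 and 148 CPM in malignant cells. It was higher than wild type in all 4 transgenic libraries. The malignant replicates differed by 3.99-fold, the widest gap between malignant replicates among the 10 genes, and lay on either side of the premalignant libraries. The log2 fold change was 1.56 ± 0.57 (SE, adjusted p = 0.0842) in premalignant vs. wild type, 1.66 ± 0.57 (SE, adjusted p = 0.0586) in malignant vs. wild type and 0.10 ± 0.56 (SE, adjusted p = 0.955) in malignant vs. premalignant. Without malignant replicate 2, the log2 fold change of malignant vs. wild type was 0.37 and was no longer called, and malignant vs. premalignant turned to −1.25 (adjusted p = 0.00314). The call against wild type was also lost without either wild type library and when only the malignant and wild type libraries were fitted.

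H2-DM is a pair of H2-DMa and either H2-DMb1 or H2-DMb2, all encoded in the class II region of chromosome 17. H2-DMa measured 23.9 and 22.7 CPM in wild type, 28.0 and 33.7 CPM in premalignant and 28.7 and 60.9 CPM in malignant cells. All 4 transgenic libraries lay above wild type, but 3 of them by little. It was called in malignant vs. wild type at a log2 fold change of 0.94 ± 0.35 (SE, adjusted p = 0.0696). This call was lost without malignant replicate 2 (0.32) and without either wild type or premalignant library. It was also lost with upper-quartile normalization and when only the malignant and wild type libraries were fitted. Premalignant vs. wild type, at 0.40 ± 0.34 (SE, adjusted p = 0.404), and malignant vs. premalignant, at 0.54 ± 0.34 (SE, adjusted p = 0.453), did not pass the test.

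H2-DMb1 was the only gene of the 10 that was called in all 3 comparisons. It measured 8.64 and 7.5 CPM in wild type, 14.6 and 15.2 CPM in premalignant and 32.2 and 49.1 CPM in malignant cells, with no overlap between any of the stages. Its log2 fold change was 0.88 ± 0.25 (SE, adjusted p = 0.0395) from wild type to premalignant cells and 1.45 ± 0.25 (SE, adjusted p = 0.0443) from premalignant to malignant cells. From wild type to malignant cells it was 2.33 ± 0.26 (SE, adjusted p = 0.00143). Its malignant replicates differed by 1.53-fold, less than those of the other genes that rose. The premalignant to malignant call was lost when only these stages were fitted (1.44, adjusted p = 0.121) and without any 1 of the wild type or premalignant libraries, at adjusted p between 0.123 and 0.421, while the log2 change stayed between 1.41 and 1.48 in those fits.

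H2-DMb2 had another course than H2-DMb1. It was at 7.05 and 11.6 CPM in wild type, 36.1 and 48.7 CPM in premalignant and 19.2 and 56.4 CPM in malignant cells, so that the malignant libraries again lay on either side of the premalignant ones. The log2 fold change was 2.19 ± 0.53 (SE, adjusted p = 0.0264) in premalignant vs. wild type, 2.02 ± 0.53 (SE, adjusted p = 0.0243) in malignant vs. wild type and −0.17 ± 0.51 (SE, adjusted p = 0.902) in malignant vs. premalignant. Without wild type replicate 1 the call in malignant vs. wild type was lost (1.70, adjusted p = 0.144), and without malignant replicate 2 H2-DMb2 was called lower in malignant vs. premalignant (−1.18, adjusted p = 0.056). The ratio of H2-DMb2 to H2-DMb1 per kilobase was 0.705 and 1.34 in wild type, 2.15 and 2.76 in premalignant and 0.515 and 0.991 in malignant cells, so that H2-DMb2 was the higher chain in both premalignant libraries. The transcripts are close copies, as their promoters above also are. Of the 50-base windows, 27.1% of those of H2-DMb1 and 25.2% of those of H2-DMb2 occur in the other gene. Counting any other gene, 29.3% of the H2-DMb2 windows were shared. Reads of 50 bases from these windows could have been split between the genes or left out, and the levels of both are uncertain to that extent. No 50-base window of the other 8 genes was shared with another gene. Only protein-coding transcripts were searched, so copies in pseudogenes or noncoding transcripts would not have been seen.

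H2-Oa and H2-Ob, which form the H2-DM inhibitor H2-O, went another way than the rest. H2-Oa was at 13.4 and 16.3 CPM in wild type, 4.65 and 7.38 CPM in premalignant and 14.8 and 8.60 CPM in malignant cells. Premalignant cells held the lowest levels, and the malignant libraries overlapped with wild type. Its log2 fold change was −1.31 ± 0.37 (SE, adjusted p = 0.0422) in premalignant vs. wild type, 0.97 ± 0.37 (SE, adjusted p = 0.222) in malignant vs. premalignant and −0.34 ± 0.37 (SE, adjusted p = 0.496) in malignant vs. wild type. H2-Oa was 0.581 times as high in malignant replicate 2 as in replicate 1, where most other members were higher.

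H2-Ob was at 161 and 212 CPM in wild type, 148 and 149.7 CPM in premalignant and 97.1 and 74.7 CPM in malignant cells. Its libraries did not overlap between stages, with wild type highest and malignant lowest. From wild type to premalignant cells its log2 fold change was −0.32 ± 0.19 (SE, adjusted p = 0.242), which did not pass the test. From premalignant to malignant cells it was −0.79 ± 0.19 (SE, adjusted p = 0.0978), and from wild type to malignant cells −1.12 ± 0.19 (SE, adjusted p = 0.00621). The premalignant to malignant call was lost when only these stages were fitted (adjusted p = 0.13) and without any 1 of the wild type or premalignant libraries. H2-Ob gave 21.3% and 25.2% of the summed CPM of the 10 genes in wild type, 7.96% and 7.52% in premalignant and 5.13% and 1.75% in malignant cells.

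Beside each other, the beta chains of H2-DM stood higher relative to H2-Ob in both transgenic stages than in wild type. Per kilobase, the sum of H2-DMb1 and H2-DMb2 was 0.199 and 0.180 times the level of H2-Ob in wild type, 0.675 and 0.834 times in premalignant and 1.09 and 2.85 times in malignant cells, with no overlap between stages. The beta chains of H2-DM were thus below H2-Ob in wild type and premalignant cells and above it in both malignant libraries. The ratio of H2-DMa to H2-Oa was 1.43 and 1.12 in wild type and 4.82 and 3.66 in premalignant cells. In malignant cells it was 1.55 in replicate 1, near wild type, and 5.67 in replicate 2. These ratios were not tested and are given as levels.

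**Figure D2:**
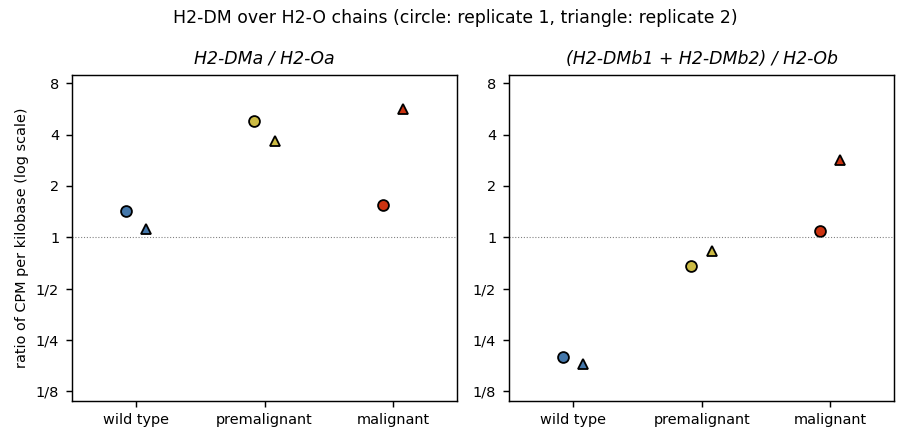
Ratio of CPM per kilobase of exon (vertical axis, log scale) of H2-DMa to H2-Oa (left) and of H2-DMb1 plus H2-DMb2 to H2-Ob (right), with replicate 1 as circles and replicate 2 as triangles in each stage and a dotted line at equal levels. The beta chain ratio is between 0.180 and 0.199 in wild type and 1.09 or above in malignant cells, while malignant replicate 1 lies near wild type in the alpha chain ratio, at 1.55.

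The order of the 10 levels per kilobase also differed between stages. In wild type cells Cd74 was followed by H2-Ab1 at 61.5 and H2-Ob at 57.9, whose libraries overlapped, and then by H2-Aa at 38.1, H2-Eb1 at 31.4, H2-DMa at 14.2 and H2-Oa at 11.3. H2-DMb1 at 5.46, H2-DMb2 at 5.45 and Ciita at 4.70 were the lowest, and the libraries of H2-DMb2 overlapped with those of both H2-DMb1 and Ciita. In premalignant cells H2-Eb1 at 184 and H2-Ab1 at 179 came after Cd74, overlapping each other, with H2-Ob further down at 46.2 and H2-Oa last at 4.58.

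In malignant cells H2-Ob at 26.7 came after H2-DMb1 at 27.5 and H2-DMa at 27.3, and these 3 were not separated by their libraries. Cd74 stood apart from the classical chains, and these stood apart from the other 6 genes, but no other neighbors in the order were separated. The malignant libraries differed by a median of 1.32-fold over all genes tested, beside 1.19-fold in wild type and 1.11-fold in premalignant cells. H2-Aa was 2.30-fold higher in malignant replicate 2 than in replicate 1, H2-Ab1 2.25-fold, H2-Eb1 3.07-fold, H2-DMa 2.12-fold and H2-DMb2 2.94-fold. Over all genes tested, 10.4% were more than 2-fold higher in malignant replicate 2 and 6.83% more than 2-fold lower. The summed level of the 10 genes was 755 and 839.7 CPM in wild type, 1857 and 1991 CPM in premalignant and 1895 and 4267 CPM in malignant cells.

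**Figure D3:**
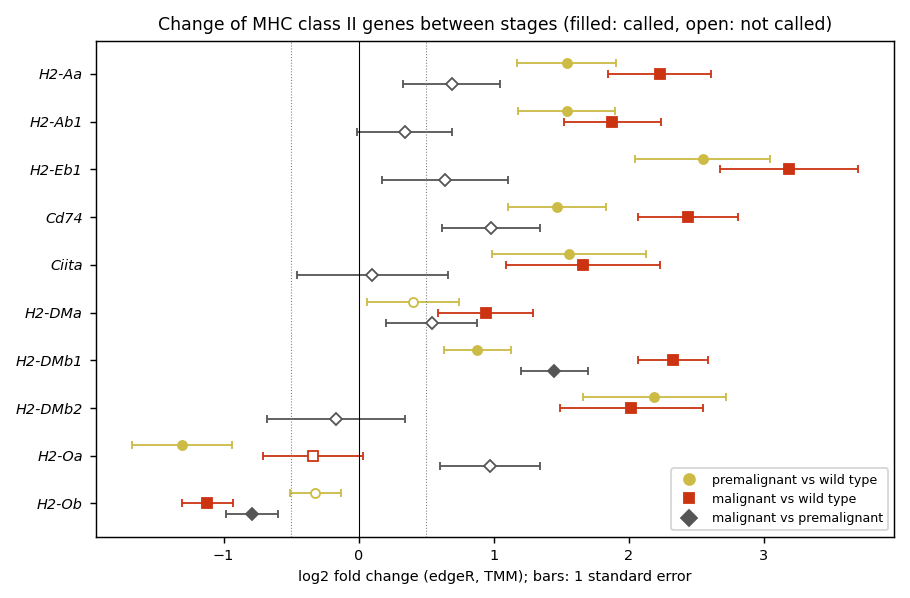
Log2 fold change of the 10 class II genes (horizontal axis) in premalignant vs. wild type (circles), malignant vs. wild type (squares) and malignant vs. premalignant cells (diamonds), with bars of 1 standard error, dotted lines at the minimum of 0.5 in either direction, and filled symbols for called genes. In malignant vs. premalignant cells only H2-DMb1, at 1.45, and H2-Ob, at −0.79, are filled.

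Most other genes of the class II pathway were not called higher with these 10. A list of 41 of them was examined, of which 39 were tested. In premalignant vs. wild type 3 were called higher and 20 lower, against 19% and 20.3% of all genes, with a median log2 fold change of −0.58. In malignant vs. wild type 8 were called higher and 14 lower, against 24.9% and 24.3% of all genes, with a median of −0.30. Between premalignant and malignant cells 6 were called higher and 0 lower, with a median of 0.21, against 3.73% and 2.45% of all genes. Both malignant libraries lay above both premalignant ones for 19 of the 39 and below them for 13, against 25.9% and 25.2% of all genes. At an unadjusted p under 0.05, edgeR had 13 higher and 7 lower in this last comparison, and the share over all genes is not given at that threshold. DESeq2 called 11 of the pathway genes higher and 2 lower, and over all genes 1149 higher and 1037 lower.

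H2-Eb2, a further class II beta gene beside H2-Eb1 that carries the spaced X and Y cores, rose in each step. It was at 2.07 and 3.68 CPM in wild type, 15.6 and 17.4 CPM in premalignant and 56.6 and 46.7 CPM in malignant cells, without overlap between stages. Its log2 fold change was 2.53 ± 0.31 (SE, adjusted p = 0.00361) in premalignant vs. wild type, 1.65 ± 0.29 (SE, adjusted p = 0.0473) in malignant vs. premalignant and 4.18 ± 0.33 (SE, adjusted p = 0.000698) in malignant vs. wild type. Unlike the classical chains, it was not higher in malignant replicate 2 than in replicate 1. Other genes in or next to the class II region did not share its course. Tap1, a transporter subunit for class I peptides, fell by 1.03 ± 0.12 in premalignant vs. wild type on the log2 scale (SE, adjusted p = 0.00361), and H2-K1, a class I heavy chain, fell by 2.03 ± 0.19 (SE, adjusted p = 0.00211). Brd2 and Psmb8 were not called in any comparison. Btnl2 was called higher in malignant vs. wild type at 1.07 ± 0.43 (SE, adjusted p = 0.0903).

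Of 7 genes that encode regulators of Ciita, 6 were called lower in premalignant vs. wild type and 6 in malignant vs. wild type, against 20.3% and 24.3% of all genes, while Ciita itself was higher. Among the 6 in each comparison is Prdm1, a repressor of Ciita that is described below. Pax5, the B-lineage factor, was at 211 and 309 CPM in wild type, 164 and 185 CPM in premalignant and 139 and 126 CPM in malignant cells, with a log2 fold change of −0.58 ± 0.20 (SE, adjusted p = 0.0752) in premalignant and −0.97 ± 0.20 (SE, adjusted p = 0.0115) in malignant vs. wild type. Irf4 was at 685 and 603 CPM in wild type and at 244 to 309.7 CPM in the 4 transgenic libraries. Irf8 went from 478 and 397 CPM to 266 and 178 CPM and then to 98.9 and 164 CPM, and its log2 fold change was −1.74 ± 0.31 (SE, adjusted p = 0.00642) in malignant vs. wild type.

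Irf1, which takes part in induction of Ciita by interferon gamma, fell from 123 and 129 CPM in wild type to 38.4 and 37.0 CPM in premalignant and 30.0 and 27.9 CPM in malignant cells, by 1.74 ± 0.13 (SE, adjusted p = 0.00173) and by 2.12 ± 0.13 (SE, adjusted p = 0.000545) on the log2 scale. Spi1 was the one regulator that was not called, at 66.9 and 83.5 CPM in wild type, 56.1 and 61.8 CPM in premalignant and 67.0 and 69.3 CPM in malignant cells. Prdm1, which represses Ciita in plasma cells, was at 6.87 and 5.80 CPM in wild type and between 0.377 and 1.33 CPM in the transgenic libraries. Its log2 fold change was −3.99 ± 0.65 (SE, adjusted p = 0.00785) in premalignant and −2.92 ± 0.61 (SE, adjusted p = 0.0114) in malignant vs. wild type.

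Of the 7 genes for the factors on the X and Y boxes, 0 were called higher by edgeR in any comparison. Over all genes, 19% were called higher in premalignant vs. wild type, 3.73% in malignant vs. premalignant and 24.9% in malignant vs. wild type. In that direction 0 of the 7 had an unadjusted p under 0.05 in edgeR, and DESeq2 called 0 of them higher. Rfx5, whose product binds the X box, was at 48.6 and 57.8 CPM in wild type, 52.8 and 51.1 CPM in premalignant and 34.2 and 41.9 CPM in malignant cells and was not called. Rfxank, its partner, was called lower at −0.62 ± 0.18 (SE, adjusted p = 0.0447) in premalignant and −0.90 ± 0.18 (SE, adjusted p = 0.0101) in malignant vs. wild type, and Creb1 at −0.55 ± 0.18 (SE, adjusted p = 0.0446) in malignant vs. wild type. The Y box factor genes Nfya, Nfyb and Nfyc were not called.

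**Figure D4:**
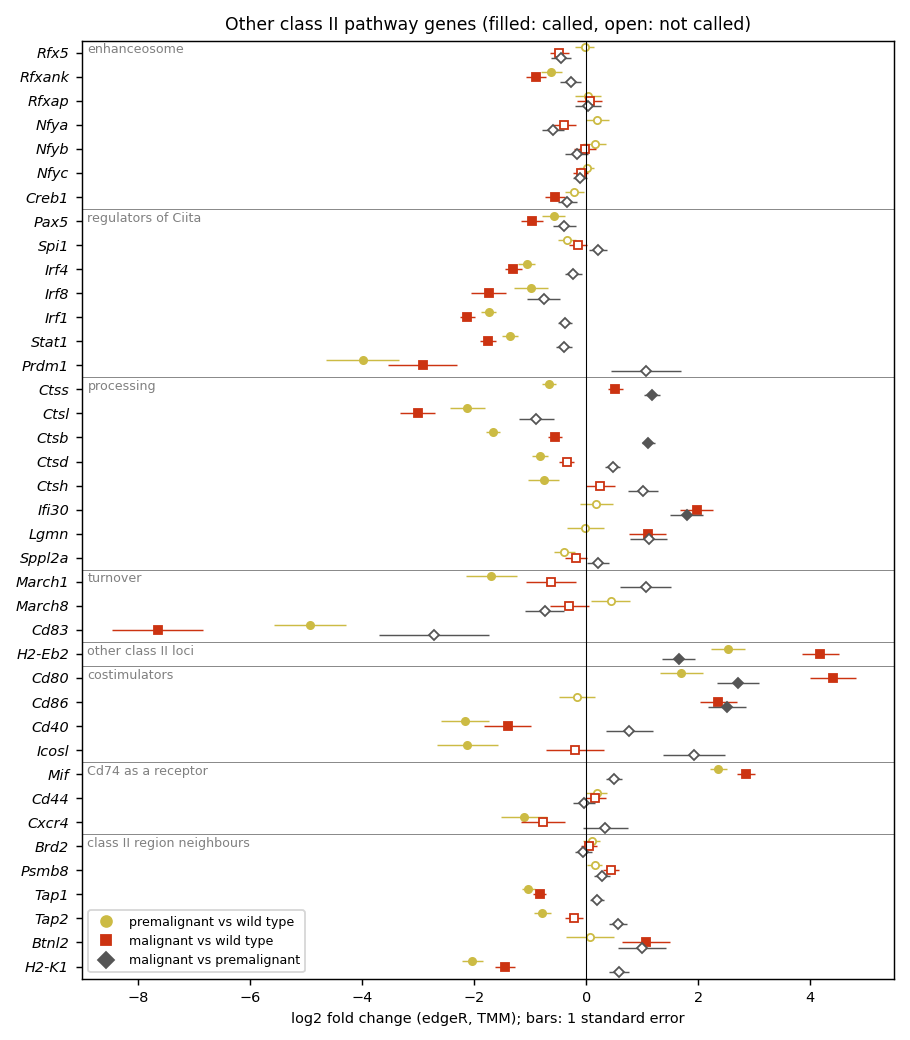
Log2 fold change (horizontal axis, bars of 1 standard error) of the 39 tested genes of the class II pathway outside the 10, grouped by role, with symbols for the 3 comparisons and filled symbols for called genes. The regulators of Ciita lie left of 0 in both comparisons with wild type, while H2-Eb2, Cd80 and Mif lie to the right, and the malignant vs. wild type value of Cd83 rests on 1 count in malignant cells.

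The proteases and the reductase that prepare antigen and remove the invariant chain differed among themselves. Of 8 such genes, 5 were called lower in premalignant vs. wild type, against 20.3% of all genes, and 3 were called higher in malignant vs. premalignant, against 3.73%. Ctss, the main protease that trims Cd74 in B cells, went from 99.3 and 103 CPM to 59.5 and 68.8 CPM and then to 141 and 150.1 CPM, so that premalignant cells held the lowest levels. Its log2 fold change was −0.66 ± 0.13 (SE, adjusted p = 0.0154) in premalignant vs. wild type and 1.18 ± 0.14 (SE, adjusted p = 0.0204) in malignant vs. premalignant. Ctsb, a further lysosomal protease, was also lowest in premalignant cells, going from 312 and 289 CPM to 96.9 and 92.9 CPM and then 203 and 206 CPM.

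Ifi30, the thiol reductase of the antigen processing compartment, was at 54.6 and 80.4 CPM in wild type, 86.0 and 66.4 CPM in premalignant and 325 and 204 CPM in malignant cells, a log2 fold change of 1.79 ± 0.30 (SE, adjusted p = 0.0422) in malignant vs. premalignant. Ctsl, which does the work of Ctss in thymic epithelium, went from 63.1 and 46.4 CPM in wild type to 6.44 and 7.21 CPM in malignant cells, a log2 fold change of −3.01 ± 0.32 (SE, adjusted p = 0.00139).

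Of 3 genes for the turnover of surface class II, 2 were called lower in premalignant vs. wild type, against 20.3% of all genes. March1, a ligase that marks class II for degradation, was at 5.36 and 5.63 CPM in wild type and 1.24 and 2.17 CPM in premalignant cells, a fall by 1.69 ± 0.46 on the log2 scale (SE, adjusted p = 0.0363), and was not called in malignant vs. wild type. Cd83, whose product opposes that ligase, had 141 and 138 counts in wild type, 7 and 2 counts in premalignant and 1 and 0 counts in malignant cells and was called lower in both comparisons with wild type.

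Among the costimulators that T cells need beside class II, Cd80 and Cd86 rose in malignant cells. Cd80 was at 0.245 and 0.283 CPM in wild type, 0.705 and 1.02 CPM in premalignant and 5.67 and 5.59 CPM in malignant cells, with a log2 fold change of 2.71 ± 0.37 (SE, adjusted p = 0.0282) in malignant vs. premalignant. Cd86 was at 3.4 and 3.68 CPM in wild type, 2.5 and 3.86 CPM in premalignant and 21.0 and 15.5 CPM in malignant cells, with a log2 fold change of 2.52 ± 0.34 (SE, adjusted p = 0.0254). Cd40 was lower than wild type in all 4 transgenic libraries, at 15.2 and 25.5 CPM in wild type and 3.13 to 8.78 CPM in the others, and Icosl was called lower in premalignant vs. wild type, by 2.12 ± 0.55 on the log2 scale (SE, adjusted p = 0.0318).

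Dendritic cells and macrophages also carry class II, and marker genes of these and other cells were followed in the same libraries. Beside the counts of called markers below, 20.3% of all genes were called lower in premalignant and 24.3% in malignant vs. wild type. Summed over 6 genes, markers of conventional dendritic cells were at 88.2 and 51.4 CPM in wild type, 7.70 and 4.10 CPM in premalignant and 1.90 and 4.19 CPM in malignant cells, and 5 of the 6 were lower in both comparisons with wild type. Markers of plasmacytoid dendritic cells summed to 436 and 293 CPM, then 119 and 76.1 CPM, and then 50.1 and 102 CPM, with 5 of 6 lower in premalignant and 6 of 6 in malignant vs. wild type. The 8 markers of macrophages and monocytes summed to 149 and 217 CPM in wild type, 34.0 and 56.5 CPM in premalignant and 9.48 and 26.7 CPM in malignant cells, with 4 of 8 lower in premalignant and 3 of 8 in malignant vs. wild type. Lyz2 gave most of that sum in wild type, at 142 and 205 CPM, and Mrc1 went the other way, from 0.719 and 1.08 CPM in wild type to 1.68 and 2.65 CPM in premalignant and 4.94 and 3.37 CPM in malignant cells, and was called higher in both comparisons with wild type.

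The sums of these 3 groups were highest in wild type libraries, where the 8 class II genes other than H2-Oa and H2-Ob were lowest. Cd209a had no counts in malignant replicate 2. Within the malignant stage, the sums of all 3 of these marker groups were higher in replicate 2, as were 8 of the 10 class II genes, and the part of such cells in the difference between the malignant replicates was not tested. Markers of immature and mature B cells, over 6 genes, summed to 483 and 589.9 CPM in wild type, 499.8 and 566 CPM in premalignant and 681 and 608 CPM in malignant cells. The genes in this sum differed: of 5 tested, 2 were called lower and 0 higher in premalignant vs. wild type, against 20.3% and 19% of all genes. In malignant vs. wild type 3 were called lower and 1 higher, against 24.3% and 24.9%. In all, of 52 markers tested, 40 were called lower and 1 higher in premalignant vs. wild type, against 20.3% of all genes lower. In malignant vs. wild type 40 were called lower and 2 higher, against 24.3% lower. These calls include B-lineage and pre-B markers, of which 8 of 9 were called lower in each comparison. Their summed level was 6719.8 and 7377 CPM in wild type, 3099 and 3041 CPM in premalignant and 2873 and 2569.5 CPM in malignant cells. The sums of neutrophil, erythroid, T and NK and plasma cell markers were each highest in a wild type library.

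**Figure D5:**
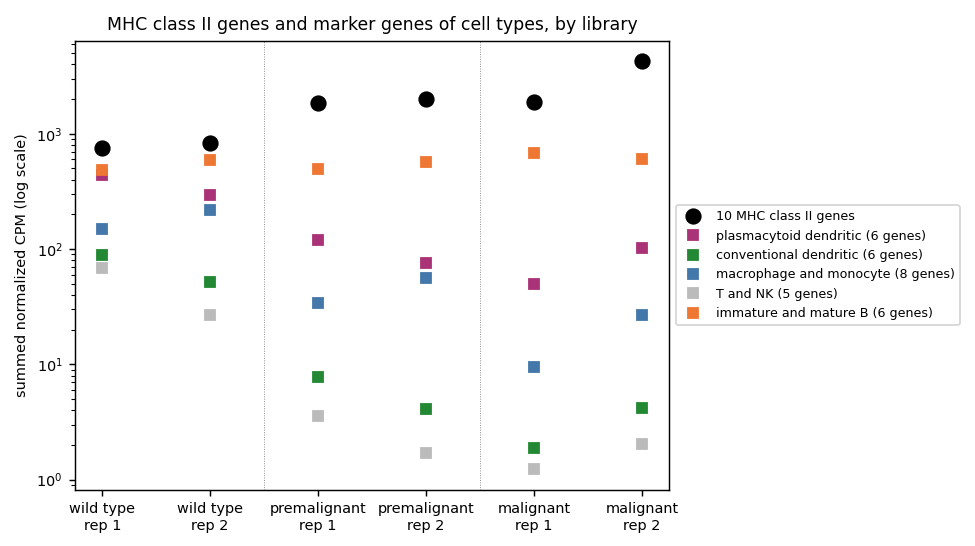
Summed normalized CPM (vertical axis, log scale) of the 10 class II genes and of marker genes of 5 cell types in each of the 6 libraries, with dotted lines between stages. The class II sum is lowest in wild type, at 755 and 839.7 CPM, where the conventional dendritic sum is highest, at 88.2 and 51.4 CPM, and heights are to be compared within a gene group only, since gene lengths differ.

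Genes outside the member, pathway and marker lists were compared in pattern over the 6 libraries with the mean of H2-Aa, H2-Ab1, H2-Eb1 and Cd74. Genes on those lists were left out beforehand, so the result does not place the closest genes outside the pathway. Among 16520 genes compared by Pearson correlation of log2(CPM + 0.1), Adsl, an enzyme of purine synthesis, came first at r = 0.9995, followed by Cdc34, a ubiquitin-conjugating enzyme, at 0.9984, Ahsa1, a cochaperone of Hsp90, at 0.9983, Coil, the marker protein of Cajal bodies, at 0.9982, and Usp50 at 0.9979. With only 6 libraries such values are frequent, and 772 genes reached 0.95 or more. Adsl was at 43.5 and 39.7 CPM in wild type, 111 and 123 CPM in premalignant and 107 and 221 CPM in malignant cells. It shared with the classical chains the order of the stages and the gap between malignant replicates.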

How the data were processed

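Alignment of the 50-bp reads was done by the authors with TopHat and counting on Ensembl genes with HTSeq. The deposited values are raw counts for each library, not normalized. Per the labels, the submitters' processing notes name mm9, CASAVA 1.8.2, Bowtie, HTSeq and DESeq, and HTSeq's options are not given in the sources used here. Reads of close gene copies could therefore have been split or left out. The authors also deposited tables of their own comparisons with DESeq, which were not used. Symbols, coordinates and exon lengths came from GENCODE vM1, which matched 37205 of 37991 identifiers. For Ciita, which has a second identifier with 9 to 21 counts, the longer gene was taken.

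Counts of all 6 libraries entered 1 fit in edgeR 4.0.16 (R 4.3.3), with stage as the factor, TMM normalization, the default filter on low counts and the quasi-likelihood test with Benjamini-Hochberg adjustment. The study's own cutoffs were kept, an adjusted p no higher than 0.1 with a log2 fold change of 0.5 or more in either direction. The SE was the absolute log2 fold change divided by the square root of F. The fit was also run on simulated data with the same dispersion, a measure of spread, of 0.05 for all genes. That check does not cover differences in spread between stages or genes. Alternatives were DESeq2 1.42.0, RLE size factors, upper-quartile normalization, other filters and thresholds, the replicate number as a block, only the stages compared, and leaving out each library. TMM takes most genes as unchanged, and a change in total RNA per cell would not be seen.

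The 10 genes and the lists of pathway and marker genes were chosen with earlier results of these data known. The text names all 10 genes and, per comparison and group of the pathway list, up to 2 called genes with the largest change. It also names H2-Ea-ps, Pax5, Spi1, Irf4, Irf8, Rfx5 and Mif. The 5 genes outside the lists that were most like the classical chains and Cd74 are named as well. Cd44, Brd2, Psmb8, the NF-Y genes and single markers were named in addition, after their values were seen. For Psmb9, which has 2 identifiers with counts, the one with the longest gene span was taken. It was not tested because its counts were near 0, and the other identifier is not reported here. Ighd of the marker list was not analysed here. One further marker gene is not reported here by name. The numbers of the replicates were shared by the stages in the labels and, with 2 pairs, were not taken as a pairing.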

Additional observations from a re-analysis of the deposited data

How the results depend on the processing

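Each result was recomputed under 7 other fits, 3 other thresholds and 6 fits that left out 1 library, where the lone sample of a stage is assumed to vary like the others. Called members in premalignant vs. wild type went from 8 to between 0 and 8 when 1 library was left out, with 1 without wild type replicate 1, 0 without wild type replicate 2, and 3 and 1 without premalignant replicates 1 and 2, and all 8 were called in the 7 other fits. In malignant vs. wild type 9 members were called, 6 to 10 with 1 library left out, and H2-Aa, H2-Ab1, H2-Eb1, Cd74, H2-DMb1 and H2-Ob were called in all 13 fits. In malignant vs. premalignant the 2 calls became 4 with DESeq2, 6 without a filter, 0 with only these stages, 1 at an FDR of 0.05, 1 at a minimum log2 change of 1, and 0 to 8 with 1 library left out (8 without malignant replicate 1, 5 without malignant replicate 2). Without malignant replicate 2, the changes of H2-Aa, H2-Ab1, H2-Eb1, Ciita and H2-DMa in this comparison turned to −0.06, −0.39, −0.42, −1.25 and −0.14, beside 1.17, 0.81, 1.23, 0.78 and 0.98 without malignant replicate 1. That of H2-Oa in malignant vs. wild type was 0.02 and −0.78 without malignant replicates 2 and 1. That of H2-DMb2 turned to 0.06 without premalignant replicate 2 and to 0.41 without malignant replicate 1, and was −1.18 without malignant replicate 2. The cause was not tested.

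Called pathway genes in premalignant vs. wild type went from 23 to between 13 and 23 with 1 library left out, and in malignant vs. premalignant from 6 to 13 with DESeq2, 14 without a filter and 0 to 14 with 1 library left out. Over all genes, 6563 calls in premalignant vs. wild type became 4282 at a minimum log2 change of 1 and 2094 to 8455 with 1 library left out. The 1031 calls in malignant vs. premalignant became 2186 with DESeq2, 2810 without a filter, 258 with only these stages, 407 at an FDR of 0.05 and 0 to 3805 with 1 library left out. Upper-quartile normalization moved the median of all genes in malignant vs. wild type from −0.02 to −0.19, and H2-DMa was not called there (0.77, adjusted p = 0.117).

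With the replicate number as a block, 8, 1 and 9 members were called in premalignant vs. wild type, malignant vs. premalignant and malignant vs. wild type, and 6575, 940 and 8224 of all genes. H2-Ob was no longer called in malignant vs. premalignant (−0.79, adjusted p = 0.128), and the change of Ciita turned to −0.09. Libraries with the same number departed from the means of their stages with correlations of 0.509, 0.257 and 0.186 in the 3 comparisons over 16683 genes, and 2 pairs do not show a pairing. Depth did not limit the 10 genes, which had far more than 3 counts in every library, but 2 libraries a stage limit each test.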
